A study of Mus musculus with 11 samples.

Results

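The genes that encode the subunits of the oxidative phosphorylation system, together with cytochrome c, were followed in forebrain RNA of Kif20a knockout and wild-type mouse embryos. The members were the 85 rows of each deposited table whose symbol begins with Nduf and a subunit letter and number (a, b, c, s or v), Uqcr, Cox followed by 4 to 8, or Atp5, plus Sdha, Sdhb, Sdhc, Sdhd, Cyc1 and Cycs. Of these, 80 had a mean of at least 10 normalized counts in each table and were tested, out of 13938 genes that met this minimum in the germline table and 14081 in the inducible one. They comprised 34 genes of complex I, 4 of complex II, 9 of complex III including Cyc1, 13 of complex IV, 15 of ATP synthase, Ndufa4, Cycs and 3 further matches to the naming rule, Ndufa4l2, Atp5s and Atp5sl, which were counted apart. The 5 that did not reach the mean in either table, Cox6a2, Cox7a1, Cox7b2, Cox8b and Cox8c, all belong to complex IV. The choice used gene names and this minimum, and it was made with earlier results of these data known.

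Poly(A) RNA of E12.5 forebrain, which the study's methods call cortex and the labels also call "Neural cell", was sequenced in 2 comparisons. The germline comparison held 3 wild-type and 3 homozygous knockout libraries. These knockouts carry the knockout-first allele, a LacZ and neomycin cassette inserted in Kif20a, in a strain that descends from a single targeted ES cell clone crossed to C57BL/6J. The inducible comparison held 3 knockout libraries, from mice with floxed Kif20a and a Nestin-driven CreERT2 activated by tamoxifen on consecutive days before collection, and 2 libraries labelled as their wild-type control. In other experiments on this line the study gave tamoxifen to pregnant mice, so littermate controls were exposed to it too. Whether the sequenced controls were exposed is not stated. Nestin directs the recombinase to neural progenitor cells, so other cells of the tissue need not carry the deletion, and the genotype of the sequenced controls is not stated, though in other experiments on this line the controls carried the floxed alleles without the Cre. The study's supplementary descriptions call the sequenced embryos littermates, but nothing ties a library to a litter or states whether it is a single embryo, so the p-values measure only the spread between these libraries.

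Most of the cell's ATP is made on the inner mitochondrial membrane. Complex I (NADH dehydrogenase) and complex II (succinate dehydrogenase) feed electrons into the chain, complex III (cytochrome bc1) passes them to the soluble carrier cytochrome c, complex IV (cytochrome c oxidase) hands them to oxygen, and ATP synthase uses the resulting proton gradient. Cytochrome c also has a role in cell death, since its release from mitochondria assembles the apoptosome. Most subunits are encoded in the nucleus, and nuclear respiratory factor 1 (NRF1), which binds a GC-rich palindromic element in many of their promoters, is a well-known activator of the group. Neural progenitors of the early cortex draw much of their energy from glycolysis, and neurons rely strongly on respiration.

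The NRF1 core is shown because it is the promoter feature for which the respiratory genes are best known. RefSeq promoter windows (GRCm38.p6, 250 bases before to 50 bases after the start of the gene) were matched to 66 of the 80 tested genes, and the core GCGCATGCG, read on both strands as GCGCATGCG or CGCATGCGC, was found in 9 of them (13.6%). The same letters were found in 3.90% of the 10508 genes tested in the germline table that have a window and in 1.95% of all 27025 genes with one. Atp5l holds the core too near the edge of its window to show. The other 8 are given with 10 bases on either side and the core in capitals, each read on the strand named, and the 2 readings of the core overlap wherever it is followed by a further C.
Cycs, chr6:50566612-50566640, plus strand: gtttgtgcgcGCGCATGCGagctagcatg
Ndufa11, chr17:56717692-56717720, plus strand: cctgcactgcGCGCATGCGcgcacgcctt
Ndufa8, chr2:36049329-36049357, plus strand: ggtaccatctGCGCATGCGtctccagcga
Uqcrc1, chr9:108936668-108936696, plus strand: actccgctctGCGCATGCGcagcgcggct
Uqcr11, chr10:80406808-80406836, plus strand: cagacgtataGCGCATGCGtgaaggcgat
Atp5k, chr5:108434431-108434459, minus strand: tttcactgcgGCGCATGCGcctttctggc
Atp5g2, chr15:102671071-102671099, minus strand: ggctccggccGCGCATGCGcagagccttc
Cox6a1, chr5:115349102-115349130, minus strand: caggaacgggGCGCATGCGcgctctcgct

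In Cycs the core begins 61 bases before the start of the gene (position -61), in Ndufa11 at -60, in Atp5k at -50 and in Atp5g2 at -42, whereas in Uqcrc1 it lies at 30, within the transcribed region. The CCGGAAG core of the ETS family, which includes the respiratory gene activator GABPA, was found in 24.2% of the members with a window, 18.2% of all tested genes and 9.93% of all genes. The ACGTG core of the hypoxia response element was found in 27.3%, 28.3% and 21.8%. Either strand counted for both, and the searches were independent, so a window can hold several cores. A match to these letters is a description of the sequence and shows no binding.

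The targeted gene was checked in every library. Kif20a, a mitotic kinesin, had normalized counts of 2456, 2295 and 2680 across the germline wild types and of 409, 374 and 503 across their knockouts. The inducible wild types had 4760 and 4844 and their knockouts 3125, 2915 and 2853. The knockout mean was thus 17.3% of the wild-type mean in the germline line and 61.7% in the inducible line (adjusted p from limma 0.00845 and 0.0107). Germline knockout replicate 2 stood apart from the other libraries on the first principal component and was low in markers of microglia, cranial mesenchyme, endothelium and erythroid cells, whose median log2 differences from the wild-type mean were -4.14, -4.82, -2.01 and -1.81 there. The 4 Y-linked marker genes were near 0 in germline wild-type replicate 2 and knockout replicates 1 and 2 and high in the other 3 germline libraries. In the inducible comparison they were near 0 in both wild-type libraries and high in the knockouts, except Ddx3y in knockout replicate 2 (2.00 normalized counts), so the sex of the embryos and the genotype cannot be told apart there.

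In the germline knockouts, most oxidative phosphorylation genes had slightly lower levels than in the wild type. Of the 80 tested members, 71 had a log2 fold change below 0, and the median was -0.20, a level 12.7% lower, against a median of -0.04 over all genes tested. With a limit of 0.05 on the unadjusted P that limma gave for log2(normalized count + 1), 6 members were called lower and 0 higher, against 2.45% and 2.93% of all tested genes. The called genes were Cycs, Ndufa5, Ndufb2, Uqcrq, Ndufa4 and Atp5j2. With a fold change of at least 1.5 as well, which 2.74% of all genes passed in either direction, only Cycs was called. When P was adjusted by Benjamini-Hochberg across the whole table, no member passed 0.05, the smallest adjusted p from limma being 0.779. In whole forebrain RNA, less of a transcript per cell and fewer cells that carry it cannot be told apart.

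The groups of libraries did not overlap for 26 members (32.5%) that were lower in all 3 knockouts than in any wild type, against 7.55% of all tested genes. They did not overlap in the other direction for 1 member, Cox4i2, against 5.90% of all tested genes. Non-overlapping low genes made up 14 of the 34 complex I genes, 5 of the 9 complex III genes, 3 of the 15 ATP synthase genes, 2 of the 13 complex IV genes and none of the 4 complex II genes, beside Ndufa4 and Cycs. Such a count can only stay or rise when a library is left out. Without knockout replicate 3 the count of 26 became 49, against 17.4% of all genes under the same setting.

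**Figure D1:**
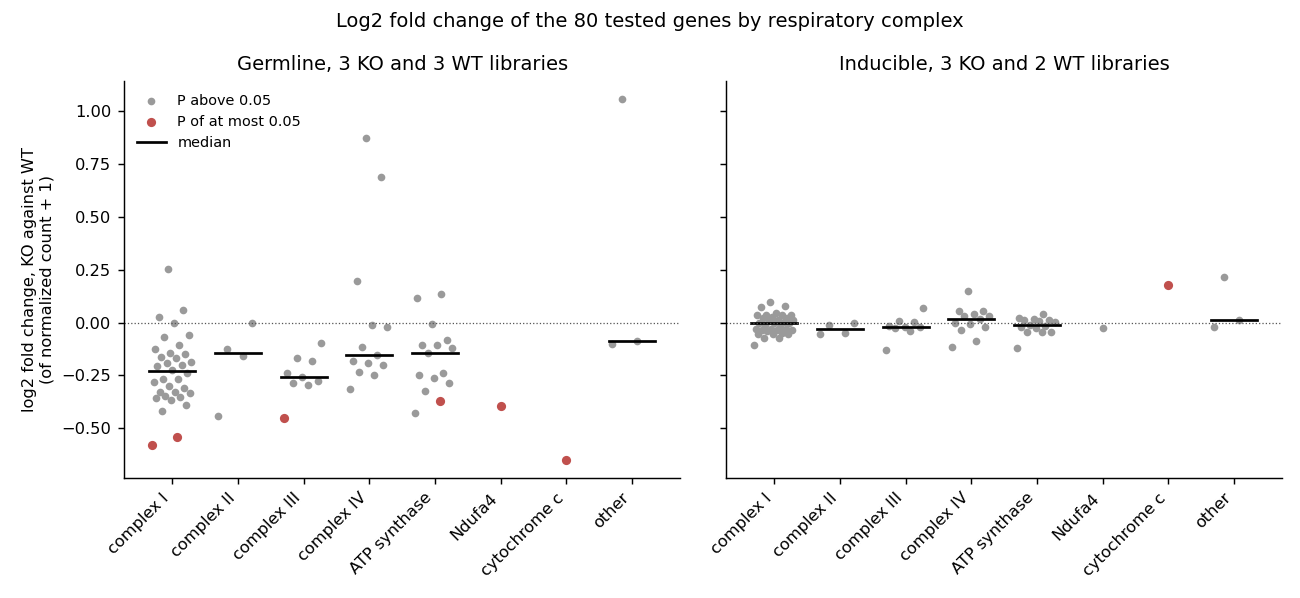
Log2 fold change (knockout against wild type, of normalized count + 1) of each of the 80 tested genes, by complex, in the germline (left) and inducible (right) comparison. Each point is a gene, red where the unadjusted P from limma was at most 0.05, and the black line is the median of the complex. The germline medians lie at -0.23 for complex I, -0.14 for complex II, -0.26 for complex III, -0.15 for complex IV and -0.14 for ATP synthase, and the inducible medians all lie between -0.03 and 0.02.

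The shift was not the same size in every library. Over all 80 members, the median log2 difference from the wild-type mean was -0.22, -0.25 and -0.11 for germline knockout replicates 1, 2 and 3. Each wild-type library was set against the mean of the other wild-type libraries, and replicate 1 lay at 0.24, replicate 2 at -0.10 and replicate 3 at -0.13. Wild-type replicate 1 was therefore the high library, with the highest wild-type value for 69 of the 80 members. The median of knockout replicate 3 was similar to those of the remaining wild-type libraries, but its baseline differs. From the mean of all 3 wild types, which the knockouts were set against, each wild type would deviate less. The members' summed counts made up 0.917%, 0.798% and 0.786% of all normalized counts for the wild types and 0.743%, 0.655% and 0.823% for the knockouts, so the knockout replicate 3 share fell between those of the wild types. Without division by the total, the sums were 109%, 96.4% and 94.8% of the wild-type mean for the wild types. They were 86.2%, 88.6% and 93.4% for the knockouts, so by this measure knockout replicate 3 lay under every wild type. For knockout replicates 1, 2 and 3, respectively, 1, 11 and 0 members lay at least 1.5-fold under the wild-type mean, and 3, 4 and 0 lay at least 1.5-fold over it. The number called lower depended on single libraries. Without wild-type replicate 1 it was 0, with a median over all members of -0.11, and without knockout replicate 1 it was 0 as well. It was 3 without wild-type replicate 2, 2 without wild-type replicate 3, 4 without knockout replicate 2 and 17 without knockout replicate 3. Cycs and Ndufa5 were among the called genes in the settings without wild-type replicate 2, knockout replicate 2 or knockout replicate 3.

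**Figure D2:**
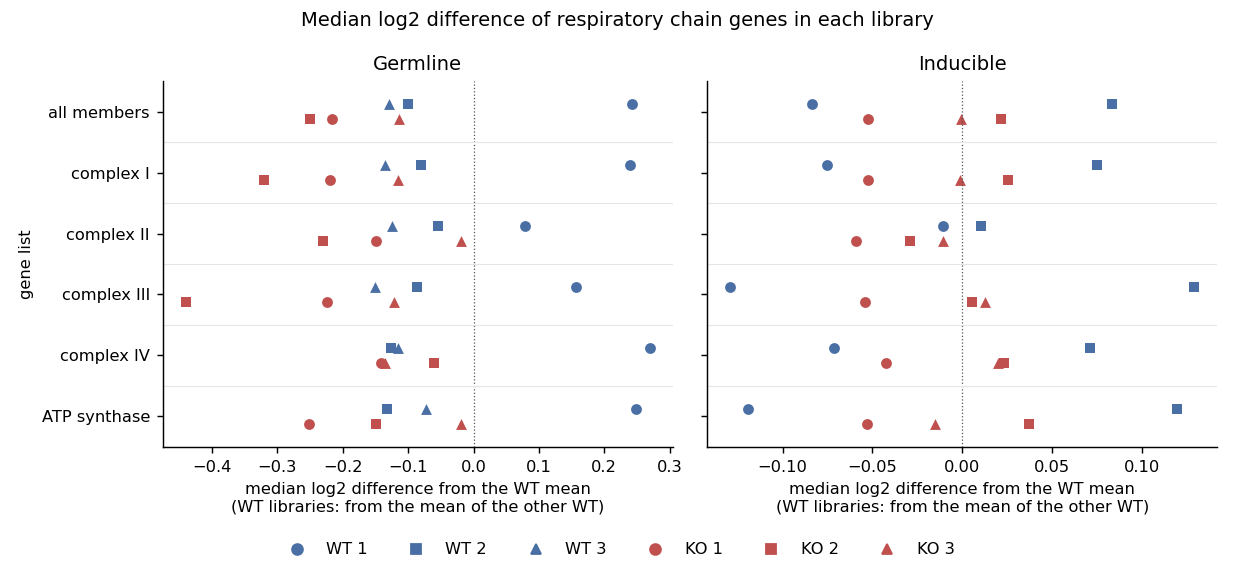
Median log2 difference from the wild-type mean, in each library, of all tested members and of each complex, germline on the left and inducible on the right, with narrower limits on the inducible axis. Blue symbols are wild-type libraries, each against the mean of the other wild-type libraries, and red symbols are knockout libraries, with the shape giving the replicate number. Each wild type thus lies farther out, in both panels, than it would from the common wild-type mean. In the germline panel wild-type replicate 1 lies to the right of the other libraries in every row. In the inducible panel the knockout medians for all members run from -0.05 to 0.02.

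Cycs, the somatic cytochrome c gene (mm9 chr6:50512562-50516537, minus strand), showed the largest decrease among the members. The study itself lists Cycs among the genes down-regulated in these germline knockouts, so its decrease here is not an independent finding. The germline wild types had 2641, 2089 and 2425 normalized counts and their knockouts 1502, 1114 and 2071. All 3 knockouts lay under all 3 wild types, but replicate 3 only just. The knockout mean was 65.5% of the wild-type mean (log2 fold change -0.65, standard error 0.23, unadjusted P 0.0261, adjusted p 0.779 from limma), and the exact two-sided permutation test gave 0.1, the smallest p that 3 against 3 libraries allow. The call was lost when wild-type replicate 1, wild-type replicate 3 or knockout replicate 1 was left out, with log2 fold changes of -0.57, -0.63 and -0.64. It held without knockout replicate 2, where the log2 fold change was -0.43.

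Complex I, the largest complex, had 31 of its 34 genes below 0. Ndufa5, an accessory subunit of the matrix arm, was at 521, 427 and 441 normalized counts for the wild types and at 313, 241 and 390 for the knockouts, with no overlap (log2 fold change -0.58, standard error 0.21, unadjusted P 0.0281 from limma). Ndufb2, a small subunit of the membrane arm, had 530, 440 and 362 normalized counts among the wild types and 311, 236 and 373 among the knockouts (log2 fold change -0.54, unadjusted P 0.0496 from limma). Its groups overlapped, since wild-type replicate 3 was under knockout replicate 3. Among the nuclear-encoded core subunits, which carry out the electron transfer, the log2 fold changes of Ndufs8, Ndufv2 and Ndufs7 were -0.36, -0.31 and 0.03, and none of these was called. Ndufv3, a flavoprotein accessory subunit, had the highest log2 fold change of the complex, 0.26, with levels of 914, 1093 and 643 in the knockouts against 822, 715 and 641 in the wild types.

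In complex II, which also belongs to the tricarboxylic acid cycle, none of the 4 genes was called. Sdhb, the iron-sulfur subunit, had a log2 fold change of -0.44 (unadjusted P 0.111 from limma), with 1585, 1085 and 2078 normalized counts in the knockout libraries against 2402, 2015 and 1853 in the wild types. Knockout replicate 3 was above 2 of the 3 wild types. Sdha, the flavoprotein subunit, and the membrane anchors Sdhd and Sdhc had log2 fold changes of -0.16, -0.13 and 0.00.

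All 9 genes of complex III were below 0. Uqcrq, a small subunit at the quinone site, was at 927, 914 and 807 normalized counts for the wild types and at 661, 531 and 761 for the knockouts, with no overlap (log2 fold change -0.45, standard error 0.17, unadjusted P 0.0299 from limma). The catalytic subunits Cyc1 (cytochrome c1) and Uqcrfs1 (the Rieske protein) had log2 fold changes of -0.24 and -0.17, and for both the groups did not overlap. The core proteins Uqcrc1 and Uqcrc2 were at -0.29 and -0.18. The smallest difference was that of Uqcrh, the hinge protein, at -0.10.

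In complex IV, 10 of the 13 tested genes were below 0 and none was called. These 10 ran from -0.32 for Cox7a2 to -0.01 for Cox8a in log2 fold change, with Cox4i1 at -0.02, and the 3 above 0 were Cox7a2l (0.20), Cox6b2 and Cox4i2. Ndufa4, named for complex I but shown to be a subunit of complex IV, was counted apart. Its wild-type values were 2325, 1957 and 1946 normalized counts and its knockout values 1675, 1294 and 1800, with no overlap (log2 fold change -0.39, standard error 0.16, unadjusted P 0.0450 from limma).

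In ATP synthase, 13 of the 15 genes were below 0. Atp5j2, the f subunit of the membrane part, had 882, 773 and 806 normalized counts among the wild types and 652, 557 and 697 among the knockouts, with no overlap (log2 fold change -0.37, standard error 0.14, unadjusted P 0.0331 from limma). The genes of the catalytic part, its head and central stalk together, lay near 0. Their log2 fold changes were -0.01 for Atp5a1, -0.11 for Atp5b, -0.08 for Atp5c1, 0.12 for Atp5d and -0.11 for Atp5e. The genes of the peripheral stalk were at -0.43 for Atp5j, -0.32 for Atp5f1, -0.29 for Atp5o and -0.12 for Atp5h. The difference between the catalytic part and the peripheral stalk was not tested, and this division was drawn up with the values known.

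**Figure D3:**
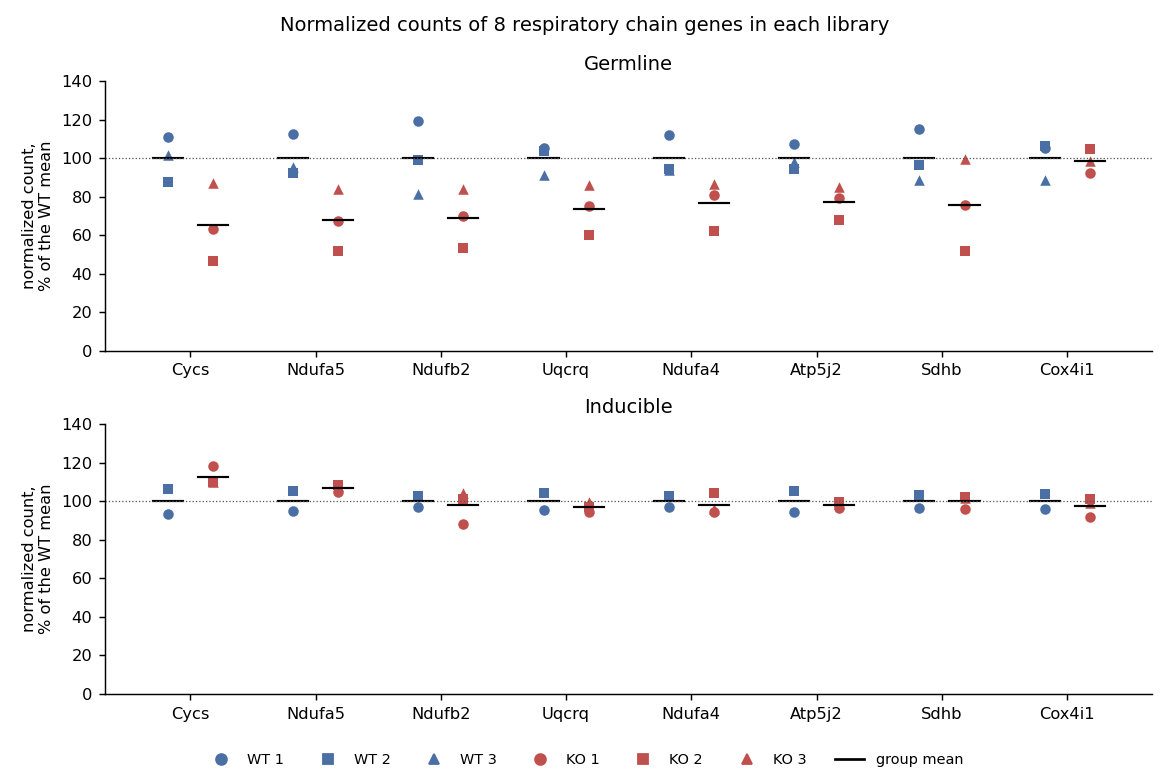
Normalized counts of 8 genes in each library as a percentage of the wild-type mean of the same comparison, germline above and inducible below. Blue symbols are wild-type and red symbols knockout libraries, the shape gives the replicate number and the black lines are group means. In the germline panel knockout replicate 2 is the lowest library for the 6 called genes and Sdhb, and Cox4i1 shows no such gap.

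The genes with the highest log2 fold changes in the germline comparison were alternative forms of subunits at low levels. Ndufa4l2, a relative of Ndufa4 that is known to respond to low oxygen, stood at 38.2, 84.0 and 19.1 normalized counts in the knockout libraries against 22.0, 18.9 and 15.3 in the wild types (log2 fold change 1.06, standard error 0.55, unadjusted P 0.0969 from limma). Cox4i2, the oxygen-regulated form of subunit 4, stood at 23.5, 16.4 and 12.1 against 6.83, 8.69 and 10.9 (log2 fold change 0.87, standard error 0.46, unadjusted P 0.100 from limma), and here every knockout was above every wild type. Cox6b2, known from testis, stood at 109, 40.6 and 55.3 against 44.5, 28.8 and 44.5 (log2 fold change 0.69), with overlapping groups. None of these 3 was called. Cox7a2l, a relative of Cox7a2 that takes part in supercomplexes, was at 3497 in knockout replicate 2, against 1992 to 2523 in the wild types, and had a log2 fold change of 0.20.

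Set per kilobase of transcript, the widely expressed forms were far above their alternatives in both groups. The wild-type mean was 4106 normalized counts per kilobase for Cox4i1 and 12.1 for Cox4i2, and 3555 for Cox6b1 and 71.3 for Cox6b2. Cox6a1 and Cox8a were at 2228 and 1799, while Cox6a2, Cox8b and Cox8c, forms known from muscle or testis, were at or under 3.95. Cox7a2 and Cox7a2l were at 2098 and 2102, and the muscle form Cox7a1 was at 23.0. Ndufa4 was at 4220 and Ndufa4l2 at 19.5. The 3 genes for the identical mature c subunit of ATP synthase, Atp5g1, Atp5g2 and Atp5g3, were at 911, 2889 and 2895 per kilobase, and their log2 fold changes were -0.26, 0.14 and -0.14.

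**Figure D4:**
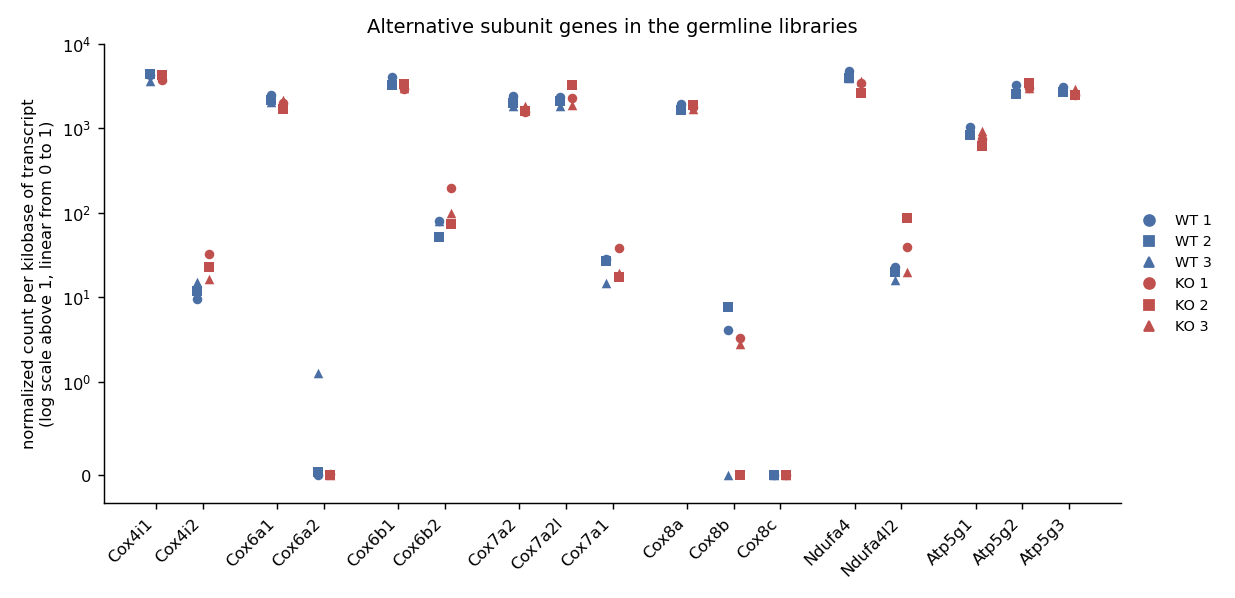
Normalized counts per kilobase of transcript of alternative subunit genes in the 6 germline libraries, on an axis that is logarithmic above 1 and linear from 0 to 1. Blue symbols are wild-type and red symbols knockout libraries, with the shape giving the replicate number. Cox4i2 lies more than 100 times under Cox4i1 in every library, and the knockout libraries lie above the wild types for Cox4i2.

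Across the complexes, the highest wild-type mean per kilobase in the germline comparison belonged to Atp5b (6115), the catalytic beta subunit of ATP synthase, and the highest of the other complexes, with Ndufa4 kept apart, were Uqcrh (4698) in complex III, Cox4i1 in complex IV, Ndufv2 (2407) in complex I and Sdhb (1830) in complex II. The lowest were Cox4i2 in complex IV, Ndufa11 (207) in complex I, Atp5g1 in ATP synthase, Sdha (941) in complex II and Cyc1 (954) in complex III. Cycs was at 764 on this scale. The lengths come from GENCODE transcripts and not from the authors' counting, so the order of neighbouring genes depends on the transcript model used. Many of these genes also have processed pseudogenes elsewhere in the genome, and how reads that match both were counted is not given in the sources used here.

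On the X chromosome lie 3 of the tested members. Their germline log2 fold changes were -0.24 for Ndufa1, -0.23 for Cox7b and -0.11 for Ndufb11, and none was called.

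The 9 members with an NRF1 core had a median log2 fold change of -0.28 in the germline comparison and those with a window but no core one of -0.19. For the ETS core the medians were -0.22 with and -0.20 without it. For the hypoxia response element core they were -0.17 with and -0.24 without it. None of these differences was tested. Among the genes shown with the NRF1 core, Cycs (-0.65), Ndufa11 (-0.42) and Ndufa8 (-0.33) were the lowest, and Atp5g2 (0.14) was the only one above 0. Of the 6 called members only Cycs holds the core, while Ndufa5, Ndufb2, Ndufa4 and Atp5j2 lack these letters in their windows and Uqcrq was not matched to a window.

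In the inducible knockouts the oxidative phosphorylation genes stood at wild-type levels on balance. The median log2 fold change of the 80 members was 0.00 (-0.0047), beside -0.0019 for all genes tested, and 45 were below 0. By the same limit on the unadjusted P of limma, 0 members were called lower and 1 higher, against 3.03% and 2.98% of all tested genes. No member passed the fold threshold as well, which 1.29% of all genes did, and the smallest adjusted p from limma was 0.825. The groups did not overlap for 5 members that were lower and 2 that were higher in the knockouts, 6.25% and 2.50% of the members, against 12.2% and 10.4% of all tested genes. Leaving out any 1 library raised both counts, which by their definition can only stay or rise when a library is dropped. Without wild-type replicate 1 they were 31 and 5, against 26.7% and 27.8% of all genes, and without wild-type replicate 2 they were 11 and 26, against 27.5% and 24.1%. Without knockout replicate 1, 2 or 3 the lower count was 6, 14 and 10, against 20.3%, 17.4% and 18.5% of all genes, and the higher count 11, 4 and 5, against 17.1%, 14.5% and 17.2%. Of 80 members, the lower and higher counts without a knockout replicate are at most 17.5% and 13.8%. Those without wild-type replicate 1 are 38.8% and 6.25%, and those without wild-type replicate 2 are 13.8% and 32.5%. Without wild-type replicate 1, Ndufa12 and Uqcr10 were called lower and none higher.

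The gene called higher was Cycs. Its wild-type values were 2754 and 3142 normalized counts and its knockout values 3490, 3240 and 3251, with no overlap (log2 fold change 0.18, standard error 0.07, unadjusted P 0.0403, adjusted p 0.825 from limma). The knockout mean was 113% of the wild-type mean, and the exact two-sided permutation test gave 0.2, the smallest p it allows here. The call was lost without wild-type replicate 1, knockout replicate 1 or knockout replicate 2, where the log2 fold changes were 0.081, 0.14 and 0.20, and without wild-type replicate 2 it held at 0.27. Cox5a, an oxidase subunit, also had knockouts above both wild types, at 1976, 2206 and 2150 against 1860 and 1941, and was not called (log2 fold change 0.15, unadjusted P 0.0522 from limma).

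The 3 lowest log2 fold changes were those of Uqcr10 (-0.13), Atp5g2 (-0.12) and Cox7a2l (-0.12), none of them called. The genes called in the germline comparison had inducible log2 fold changes of 0.10 for Ndufa5, -0.03 for Ndufb2, -0.04 for Uqcrq, -0.03 for Ndufa4 and -0.02 for Atp5j2, with standard errors from 0.06 to 0.10. The highest value, 0.22 for Atp5s, came with a standard error of 0.20. Complex medians ran from -0.03 in complex II to 0.02 in complex IV. Ndufb8 was the highest complex I gene per kilobase in these wild types (3153), and Sdhc, Sdhd and Uqcrfs1 took the places of Sdhb, Sdha and Cyc1 as the extremes of complexes II and III, with 3412, 1590 and 1740 per kilobase.

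The libraries differed little. The median log2 difference of all members from the wild-type mean was -0.05, 0.02 and 0.00 in knockout replicates 1, 2 and 3, and the wild-type libraries lay 0.08 apart from each other in either direction (-0.08 and 0.08). The members' share of all normalized counts was 0.757% and 0.792% for the wild types and 0.749%, 0.791% and 0.779% for the knockouts. The median standard deviation of the members' log2 values was 0.07 in the wild-type and 0.05 in the knockout group, against 0.16 and 0.15 in the germline groups, so the inducible comparison had less spread between libraries.

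Other mitochondrial genes were counted from lists of known members. Mitochondrial ribosomal proteins, which translate the subunits encoded in mitochondrial DNA, had 68 of 76 genes below 0 in the germline comparison and a median of -0.21. Of these, 3 (3.95%) were called lower, near the 2.45% of all genes, and 0 higher, with Mrpl41 (log2 fold change -0.60) past the fold threshold too. Complex assembly factors had 4 of 38 genes (10.5%) called lower, 0 higher and a median of -0.16. The called factors were Ndufaf4 of complex I (-0.59, past the fold threshold too), Cox19 of complex IV (-0.58), Sdhaf1 of complex II (-0.44) and Coa5 of complex IV (-0.32). In the tricarboxylic acid cycle and pyruvate dehydrogenase, Idh3a (-0.42) and Pdhx (-0.33) were called lower out of 17 genes (11.8%), none higher, and the median was -0.14.

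Regulators of mitochondrial biogenesis and mitochondrial DNA had 1 of 17 genes (5.88%) called lower, the transcription factor Tfb2m (-0.52), and none higher, with a median of -0.04. Nrf1 itself had a log2 fold change of -0.11, Gabpa one of -0.15 and Tfam, which packages mitochondrial DNA, one of -0.30, none of them called. Ppargc1a and the subunits encoded in mitochondrial DNA were not analysed here. Of 15 apoptosome partners of cytochrome c, none was called in either direction (median -0.01). In the inducible comparison the medians of these 5 lists lay between 0.00 and 0.02. There, Cox18 (an assembly factor, 0.30) and Mrpl37 (0.14) were called higher, 2.63% and 1.32% of their lists against 2.98% of all genes. Among the apoptosome partners Bak1, which opens the outer mitochondrial membrane, was called lower (-0.17) and Bcl2, which prevents this, higher (0.32). Each was 1 of 15 genes (6.67%), against 3.03% of all genes called lower and 2.98% called higher.

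Cytosolic ribosomal proteins, another set of short and abundant transcripts, went the other way in the germline comparison, with 74 of 80 genes above 0 and a median of 0.13. Of them 1 (1.25%), Rpl28, was called higher, against 2.93% of all tested genes. Hypoxia response and glycolysis genes were higher in the germline knockouts, the opposite direction to the respiratory genes. Of 35 tested, 22 (62.9%) were past both thresholds and higher, against 2.07% of all tested genes, and the median was 1.08. This list includes Cox4i2 and Ndufa4l2, which were not among the 22. Adm (log2 fold change 3.99), P4ha2 (3.15), Slc16a3 (2.60), Bnip3 (2.54) and Slc2a3 (2.48) led, followed by Vegfa, Hk2, Slc2a1, Ankrd37, P4ha1, Pdk1, Aldoa, Ero1l, Gpi1, Eno1, Pfkl, Ldha, Tpi1, Pgam1, Pgk1, Lonp1 and Pkm. The list was known from earlier results of these data to be raised. In the inducible comparison its median was -0.09, with 5 of 34 genes (14.7%, against 3.03% of all genes) called lower. There 1 gene was called higher (2.94%, against 2.98% of all genes), and none was past the fold threshold.

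By library, the median log2 difference of the hypoxia and glycolysis genes was 1.37, 1.94 and 0.18 in knockout replicates 1, 2 and 3. With the sign turned, this is the order of the medians over all respiratory genes and within complexes I, II and III. It is not the order within ATP synthase, at -0.25, -0.15 and -0.02, or complex IV, at -0.14, -0.06 and -0.14. Pdk1, the kinase that restrains pyruvate entry into mitochondria, stood at 4461, 5162 and 972 normalized counts in the knockout libraries against 804 to 828 in the wild types. Mitochondrial ribosomal proteins followed the respiratory genes, at -0.23, -0.32 and -0.03. Neuron markers did not, at -0.89, 0.76 and -0.79, with 0.09, 0.33 and -0.44 in the wild types. Knockout replicates 1 and 2 also lack Y-linked signal, and so does wild-type replicate 2. Against the other wild types, that library had a hypoxia and glycolysis median of 0.07 and a respiratory median of -0.10. With the level of the Y-linked genes as a covariate 0 members were called lower. The part of the hypoxia genes, of cell composition and of sex in the germline result was not tested.

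**Figure D5:**
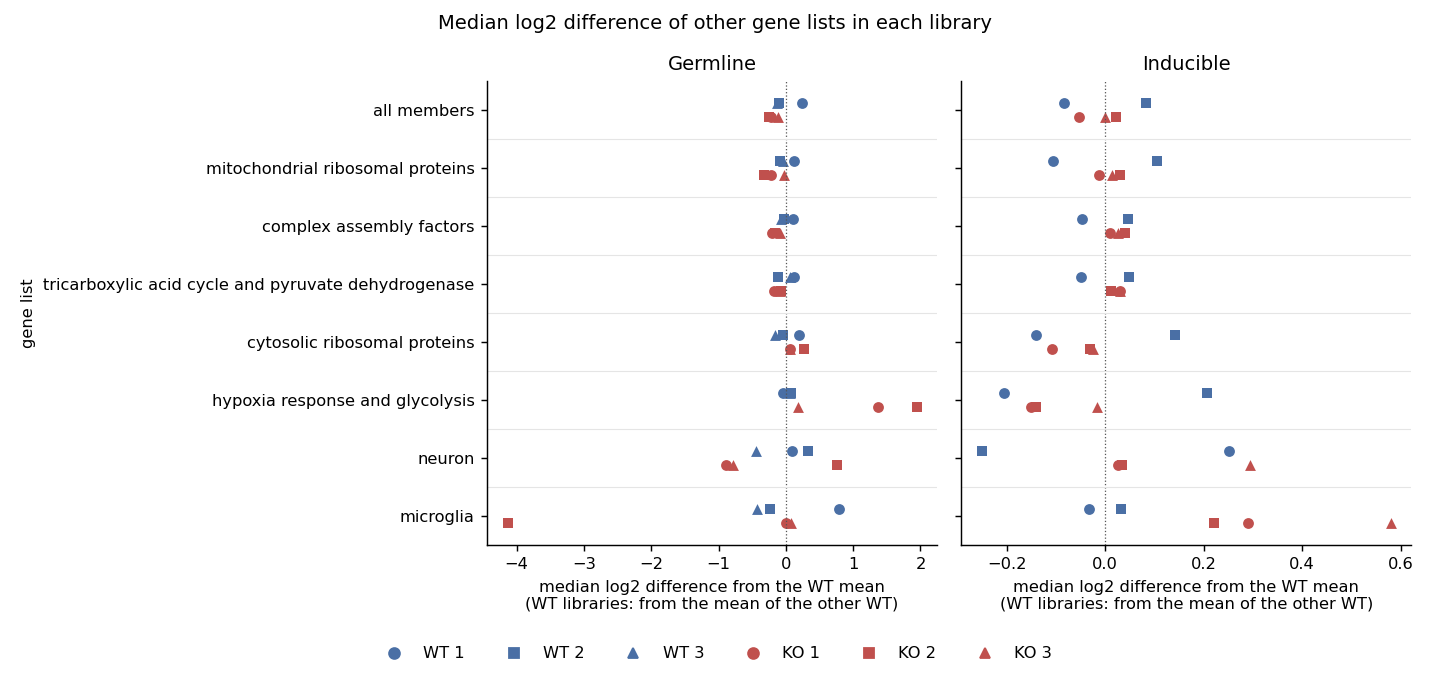
Median log2 difference from the wild-type mean of 8 gene lists in each library, germline on the left and inducible on the right, with a narrower axis on the right. Blue symbols are wild-type libraries, each against the mean of the other wild-type libraries, and red symbols are knockout libraries, with the shape giving the replicate number. In the germline panel the hypoxia and glycolysis list is far to the right in knockout replicates 1 and 2 and near 0 in replicate 3, and the microglia markers are low in replicate 2 alone.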

How the data were processed

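Poly(A) RNA was sequenced by the authors on an Illumina instrument, aligned to mm9 with TopHat (1.2.0 in the submitters' processing notes, another version in the study's methods) and counted on RefSeq exons. The deposited signal is a normalized count per gene, made by the authors within each table with edgeR's TMM scaling (trimmed mean of M-values), without length scaling or logarithm. The 2 tables were therefore fitted separately. After this scaling a library's total (13048716 to 15551274 germline, 24118520 to 24497307 inducible) does not show its depth, which is unknown, so no counting intervals are given. Columns were matched to libraries by name, and 0 were left unused.

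Values were analysed as log2(value + 1), which understates changes of low genes, with limma 3.58.1 in R 4.3.3 (lmFit, eBayes with trend, two-sided), over genes with a mean of at least 10. The thresholds were an unadjusted P of 0.05, alone and with a 1.5-fold change. The script was tested on simulated data. Levels per kilobase used the median length of GENCODE M1 (NCBIM37) protein-coding transcripts of at least 300 bases. Of 85 members, 84 matched a single gene model. Summaries used Python 3.11.15, pandas 2.3.3 and scipy 1.17.1, and figures matplotlib 3.10.9.

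The members, lists and tests were chosen with earlier results of these data known. Genes named with values were Cycs, Kif20a, the 4 called members with the largest log2 fold change per direction (the 3 largest where none was called), alternative subunit forms, complex II and Cyc1, the extremes of each complex per kilobase, X-linked members, Nrf1, Gabpa and Tfam, and genes of other lists past both thresholds. Any other gene was named after its values were seen. Alternatives were other pseudocounts, filters, scalings, library weights, a replicate block, a Y-linked covariate and leaving out libraries. Values of some genes are not reported here.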

Additional observations from a re-analysis of the deposited data

Results flagged for a closer look

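Cycs was lower in all 3 germline knockouts than in any of their wild types (log2 fold change -0.65) and higher in all 3 inducible knockouts than in both of theirs (0.18). It was noted because the libraries of the 2 comparisons moved in opposite directions, and the difference between them was not tested. The deletions differ in extent, timing and cell type, and the remaining Kif20a was 17.3% and 61.7% of wild type. In the germline knockouts Cycs was at 63.0%, 46.7% and 86.8% of the wild-type mean, and in the inducible knockouts at 118%, 110% and 110%.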

How the results depend on the processing

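No called value changed sign under any setting run, and the smallest adjusted p from limma of any member was 0.281 in the germline comparison (without knockout replicate 2) and 0.560 in the inducible comparison (array weights). The 6 germline members called lower became 2 with quantile normalization, 3 with median centring and 0 with the Y-linked covariate, under which Cycs had a log2 fold change of -0.42 (unadjusted P 0.0646 from limma). Members called higher became 1 without the trend (Cox4i2) and 1 with array weights (Cox6b2). Leaving out 1 library in turn gave 0 to 17 members called lower, 0 to 2 called higher, 27 to 49 non-overlapping lower (9.79% to 20.0% of all genes), 1 to 3 non-overlapping higher (8.19% to 13.6%), a median of all members of -0.24 to -0.11 and a Cycs value of -0.87 to -0.43. Leaving out wild-type replicate 1 and knockout replicate 2 together, a setting chosen after seeing the data, left 0 members called lower, 1 called higher, 36 non-overlapping lower against 29.3% of all genes, 4 non-overlapping higher against 17.4% and Cycs at -0.35. In the inducible comparison, members called higher became 2 with median centring, 2 with array weights, and 0 without the trend, where Cycs kept 0.18 with an unadjusted P of 0.0930 from limma. Leaving out 1 library in turn gave 0 to 2 called lower, 0 to 1 called higher, 6 to 31 non-overlapping lower (17.4% to 27.5% of all genes), 4 to 26 non-overlapping higher (14.5% to 27.8%) and Cycs at 0.081 to 0.27. Counts of non-overlapping members can by definition only stay or rise when a library is left out. The cause of the other moves was not tested. With the replicate number as a replicate block, 5 germline members were called lower, and 0 inducible members were called higher, with Cycs at 0.19 (unadjusted P 0.0906 from limma). The numbers do not pair the libraries: same-numbered pairs correlated at -0.12, 0.31 and 0.25 in the germline and -0.35 and -0.05 in the inducible comparison. Depth is unknown, and with 2 or 3 libraries a group only changes well above the spread could be called.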

Other observations

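Of the 6 germline members called lower, 4 lie on chromosome 6 in mm9: Ndufa4 (start 11850373), Ndufa5 (24468666), Ndufb2 (39542573) and Cycs (50512562). The fifth tested member there, Ndufa9 (126771881), had a log2 fold change of -0.21 and was not called. The chromosome was noticed after the values were seen and was not tested. Over all 677 genes of chromosome 6 tested in the germline comparison, 2.95% were called lower, with a median log2 fold change of -0.05, and in the inducible comparison none of the 5 members was called lower.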
